A study of Homo sapiens with 4 samples.

Results

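The RNA and protein genes described here are those of the 7SK ribonucleoprotein particle and of the positive transcription elongation factor b (P-TEFb). They are 9 of the 57659 Ensembl genes in the deposited table, and were chosen by gene name: RN7SK, HEXIM1, HEXIM2, LARP7, MEPCE, CDK9, CCNT1, CCNT2 and AFF4. Measured values would have entered the choice only for a name with several entries, where the entry with the highest mean was to be kept, and each of the 9 names had 1 entry. Because the set was put together with earlier results of these libraries known, counts over it are descriptions. The libraries come from 786-0, an established human renal cell carcinoma line. Both groups were transfected with siRNA: 2 libraries are of cells that received siRNA against SLFN5, a Schlafen family gene which the series examines as a regulator of how these tumour cells move and invade, and 2 are of cells that received control siRNA. The labels give neither the number of siRNA sequences nor whether libraries sharing a group are separate cultures, so the p-values measure only the spread between these libraries, which may be technical.

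P-TEFb is a kinase made of CDK9 and a T-type cyclin, and it phosphorylates RNA polymerase II and the factors that hold the polymerase paused near the start of a gene. Much of it is kept inactive in the nucleus by HEXIM proteins bound to the 7SK RNA. The 7SK RNA is a noncoding transcript of RNA polymerase III that is capped by MEPCE and held at its end by LARP7. Released P-TEFb can join the super elongation complex, which is built on AFF scaffold proteins such as AFF4.

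The recovered read counts were 17117659 and 14700669 in the SLFN5 siRNA libraries, and 31905328 and 13187517 in the control siRNA libraries. The deposited values are adjusted counts, brought by the authors to a common library size, and all levels below are in that unit. The targeted gene followed the labels, with SLFN5 at 167 and 118 in the SLFN5 siRNA libraries and 420 and 353 in the control siRNA libraries (log2 change -1.45, SE 0.21, limma adjusted p = 0.000524). Of 15640 genes tested, 4630 passed an adjusted p of 0.05 in limma with Benjamini-Hochberg adjustment, which is 29.6% of them, 13.3% being higher and 16.3% lower after SLFN5 siRNA. The kidney marker PAX8 stood at 3994 and 3392 in the SLFN5 siRNA libraries, and at 4129 and 3726 in the control siRNA libraries. LRP2, also on the kidney list, had no reads. Of the 13 kidney markers, 11 were tested, 5 rose and 1 fell, which is 45.5% and 9.09% of those tested. Summed values of 7 leukocyte markers were 32.7 and 20.1 in the SLFN5 siRNA libraries, against 17.3 and 10.6 in the control siRNA libraries, with CD3E and MS4A1 at no reads. Most of that sum was ITGAM, at 30.6 and 17.8 in the SLFN5 siRNA libraries and 11.2 and 2.21 in the control siRNA libraries (log2 change 1.96, limma adjusted p = 0.0559), while CD14 was at 2.05 and 2.33 in the SLFN5 siRNA libraries and 4.93 and 8.33 in the control siRNA libraries. ITGAM and CD14 are named after their values were seen, and the part of other cells in the results was not tested. Those of 5 endothelial markers were 9.22 and 12.6 in the SLFN5 siRNA libraries, against 5.23 and 14.8 in the control siRNA libraries. Those of 5 fibroblast markers were 108 and 80.8 in the SLFN5 siRNA libraries, against 163 and 96.2 in the control siRNA libraries. Of the markers of these 3 other cell types, 1, 0 and 3 were abundant enough to be tested and none passed.

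All 9 genes passed the filter on low values. Only RNA was measured, so rises and falls are of transcripts, also where a protein is named. The 7SK RNA and the transcripts of the inhibitor HEXIM1 and of the kinase CDK9 were higher after SLFN5 siRNA. LARP7, MEPCE, HEXIM2, both cyclin T genes and AFF4 did not pass the test. That is 3 of 9 called, against 29.6% of all genes tested, so the share called is near the background. All 3 were higher, and 13.3% of all genes tested were called higher. The median log2 change of the 9 genes was 0.16, beside -0.03 over all genes tested. The values of the groups did not overlap for 4 of the 9 genes, against 64.6% of all genes tested.

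**Figure D1:**
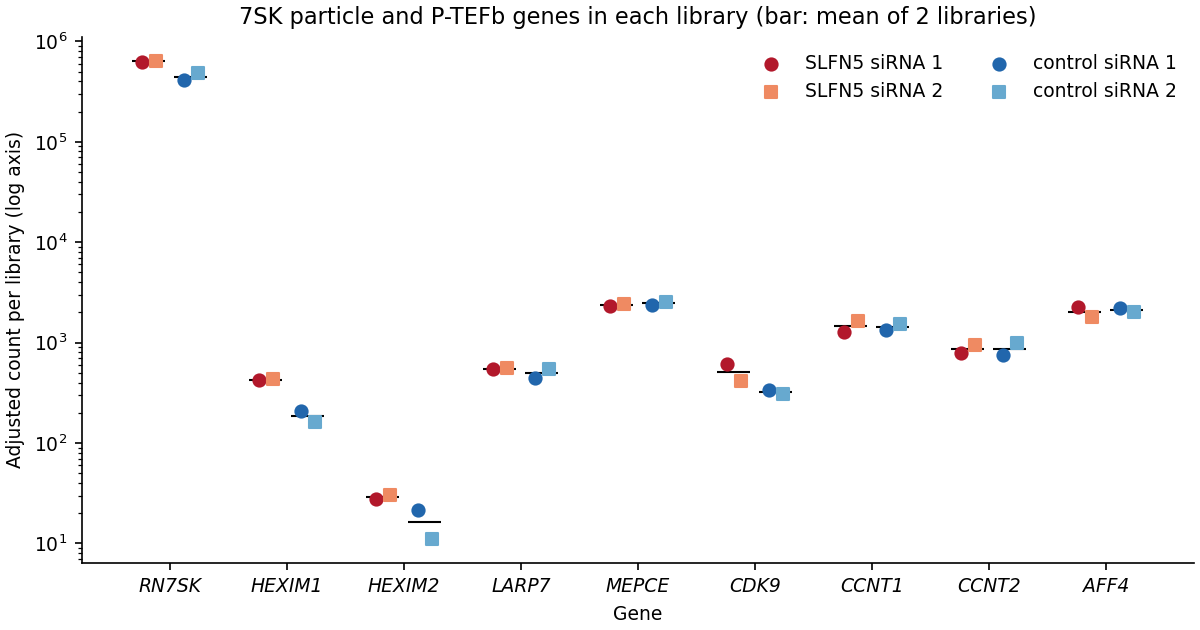
Adjusted counts per library, on a log axis, of the 9 genes, bars marking group means, with the SLFN5 siRNA libraries left of the control siRNA libraries. RN7SK, HEXIM1, HEXIM2 and CDK9 have SLFN5 siRNA libraries that all lie above both control siRNA libraries, and the groups of the other 5 genes overlap.

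The 7SK RNA itself is encoded by RN7SK (ENSG00000202198) on chromosome 6. The GENCODE 29 transcript has 331 bases. GENCODE 29 also has a second entry on the same strand under the name RN7SK (ENSG00000283293), which shares 328 of these bases and was not analysed here. The ends of the 331-base transcript are printed because they hold what the particle's proteins bind. Capitals in the 5′ stretch, positions 1 to 100, mark each GATC, found by search at positions 13, 42 and 64. Paired GATC repeats of the 5′ hairpin are known as the landing place of HEXIM proteins. Capitals in the 3′ stretch, positions 271 to 331, mark the run of T at the end, which in the RNA is the U tail that LARP7 holds.
7SK 5′ stretch: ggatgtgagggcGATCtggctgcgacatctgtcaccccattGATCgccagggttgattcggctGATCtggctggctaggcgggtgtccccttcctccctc
7SK 3′ stretch: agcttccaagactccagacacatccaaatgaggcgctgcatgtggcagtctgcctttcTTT

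RN7SK was at 618901 and 642224 in the SLFN5 siRNA libraries, and at 408974 and 482046 in the control siRNA libraries. Both SLFN5 siRNA libraries lay above both control siRNA libraries. The mean was 630563 ± 16491 after SLFN5 siRNA and 445510 ± 51670 after control siRNA (SD, n = 2 each), a 1.42-fold rise. On the log2 scale the change was 0.51 (SE 0.17, 95% interval 0.14 to 0.87, limma adjusted p = 0.038). RN7SK took 3.54% and 3.76% of the recovered counts in the SLFN5 siRNA libraries, and 2.20% and 2.53% in the control siRNA libraries. It had the highest value of any gene in both SLFN5 siRNA libraries and ranked 2 in both control siRNA libraries. The call did not survive leaving out any single library. It was also lost with a pseudocount of 5 (limma adjusted p = 0.0668) and without the intensity trend (limma adjusted p = 0.106). The adjusted p was 0.138 without SLFN5 siRNA 1, 0.165 without SLFN5 siRNA 2, 0.272 without control siRNA 1 and 0.0565 without control siRNA 2. Over 15 alternative settings the log2 change stayed between 0.37 and 0.64, and the adjusted p between 0.000498 and 0.272.

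7SK RNA has no poly(A) tail, yet these libraries were selected for poly(A), so other RNAs without a tail were set beside it. The genome also holds many copies derived from 7SK, and 295 RN7SK pseudogenes are in the table, of which 116 passed the filter. In this group 14 rose, which is 12.1% of those tested and near the 13.3% of all genes called higher. None fell, against 16.3% of all genes, and the median log2 change was 0.51. With RN7SK itself left out, the pseudogene values summed to 38259 and 32946 in the SLFN5 siRNA libraries, and 26676 and 24889 in the control siRNA libraries, 1.38-fold higher on average. The pseudogene with the highest mean, RN7SKP71, was at 6777 and 6960 in the SLFN5 siRNA libraries, and at 4472 and 4773 in the control siRNA libraries (log2 change 0.57, limma adjusted p = 0.00192). It matches 84.6% of the bases of 7SK and shares a longest identical run of 145 bases with it. RN7SKP203, at 89.1% identity, had a log2 change of 0.32 that did not pass (adjusted p = 0.0603). RN7SKP203 did pass under 6 of its 15 alternatives. Among them were quantile normalization (0.53, adjusted p = 0.00574), median of ratios scaling (0.35, adjusted p = 0.044) and library totals (0.44, adjusted p = 0.0156). Without SLFN5 siRNA 2 its change was 0.42. Over its 15 alternatives the adjusted p ran between 0.0017 and 0.379. RN7SKP255, at 85.5%, rose by 0.37 (adjusted p = 0.0441). That call was lost under 4 of its 15 alternatives. Among them were the fits without SLFN5 siRNA 1 (log2 change 0.21), without control siRNA 1 (0.43) and without control siRNA 2 (0.30). Only 2 of the 14 calls held when each library was left out in turn. How reads shared by RN7SK and its copies were assigned is not given in the sources used here, so the pseudogene values are uncertain.

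The other RNAs without a poly(A) tail did not rise with 7SK as a group. With RN7SK left out and its pseudogenes kept, the classes summed to 1907409 and 1419651 in the SLFN5 siRNA libraries, and 1744159 and 2154212 in the control siRNA libraries, 0.853-fold, and the groups overlapped. Signal recognition particle RNA genes and copies (RN7SL) summed to 339729 and 222427 in the SLFN5 siRNA libraries, and 270713 and 349435 in the control siRNA libraries. The class of spliceosomal RNAs, which take part in pre-mRNA splicing, was taken by gene names starting with RNU and includes their pseudogenes. It summed to 499142 and 305667 in the SLFN5 siRNA libraries, and 351677 and 620044 in the control siRNA libraries. Of its 93 tested genes, 13 were lower and 0 higher. The RNA components of RNase MRP, RNase P and telomerase summed to 464606 and 374656 in the SLFN5 siRNA libraries, and 489735 and 490815 in the control siRNA libraries. Nearly all of that was RMRP, of RNase MRP, at 464256 and 374316 against 489437 and 490409. TERC, of telomerase, overlapped between groups (log2 change -0.01), and RPPH1, of RNase P, was below the filter on low values. The Y RNAs and their pseudogenes summed to 61222 and 42672 in the SLFN5 siRNA libraries, and 75008 and 63348 in the control siRNA libraries. These last 2 classes, the replication histones and the vault RNAs lay lower in both SLFN5 siRNA libraries. Among replication histone genes, whose mRNAs end in a stem-loop, 12 of 69 fell and 1 rose. Box C/D RNAs, which guide methylation of other RNAs, had 15 of 79 lower and 0 higher. Called lower were 14% of the spliceosomal class, 17.4% of the histone genes and 19% of the box C/D RNAs. These shares are near the 16.3% of all genes tested. Called higher were 0%, 1.45% and 0% of the same classes, against 13.3% of all genes tested. The classes together, RN7SK included, took 14.4% and 12.1% of the recovered counts in the SLFN5 siRNA libraries, and 11.6% and 13.8% in the control siRNA libraries. What carry-over of RNAs without a tail contributed to the RN7SK result was not tested.

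**Figure D2:**
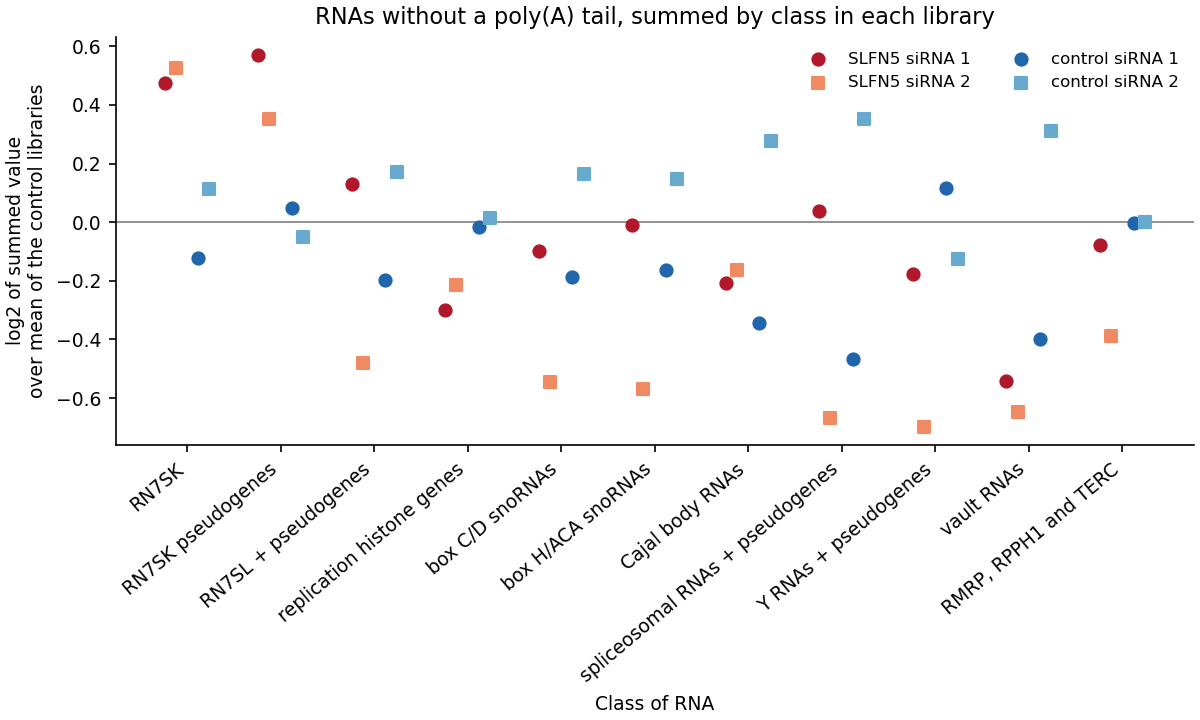
Summed adjusted counts of each class of RNA without a poly(A) tail, per library, as log2 over the mean of the control siRNA libraries. RN7SK and its pseudogenes have both SLFN5 siRNA libraries above both control siRNA libraries, while the RN7SL and spliceosomal classes overlap between the groups.

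HEXIM1 (ENSG00000186834, chromosome 17) encodes the inhibitor that, bound to 7SK RNA, blocks the CDK9 kinase. It was at 424 and 434 in the SLFN5 siRNA libraries, and at 209 and 163 in the control siRNA libraries. The mean was 429 ± 7.19 after SLFN5 siRNA and 186 ± 32.5 after control siRNA (SD, n = 2 each), a 2.30-fold rise. This was the largest change among the 9 genes, at 1.21 on the log2 scale (SE 0.19, 95% interval 0.80 to 1.62, limma adjusted p = 0.000664), and 95.5% of the genes tested had a lower change. It was called under all 15 alternative settings, with a log2 change of 1.03 to 1.39 and an adjusted p of 9.58e-07 to 0.0436. An antisense gene, AC138150.1, overlaps 520 exon bases of HEXIM1. The kit does not mark strand, so reads there cannot be told apart, and AC138150.1 itself was listed at 1.05 and 8.99 in the SLFN5 siRNA libraries and at 4.13 and 3.05 in the control siRNA libraries.

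HEXIM2 (ENSG00000168517), a paralogue that can take the place of HEXIM1, is its neighbour on chromosome 17, with 0 protein-coding genes between them. A further gene on the opposite strand, AC138150.2, covers 1026 exon bases of HEXIM2, which is 50.3% of them, and was not analysed here. As the kit does not mark strand, reads in that stretch cannot be told apart. HEXIM2 was at 27.6 and 30.1 in the SLFN5 siRNA libraries, and at 21.7 and 11.1 in the control siRNA libraries. The groups did not overlap, but the control siRNA libraries lay far apart. The log2 change of 0.85 (SE 0.48, 95% interval -0.20 to 1.90) did not pass the test (limma adjusted p = 0.21), and the interval holds both no change and a change as large as that of HEXIM1. Without control siRNA 2 the change was 0.39 and without control siRNA 1 it was 1.30. The log2 ratio of HEXIM1 to HEXIM2 was 3.94 and 3.85 in the SLFN5 siRNA libraries, and 3.27 and 3.88 in the control siRNA libraries. The ratios overlapped between groups (exact permutation p = 0.667, two-sided, where 0.333 is the smallest that 2 against 2 allows).

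The promoter windows of HEXIM1 and CDK9 are printed because these were the called protein genes. RefSeq windows on GRCh38.p14, from 250 bases before to 50 after the start, were matched for 8 of the 9 genes. Capitals mark the TATA box letters TATAAA, the ZNF143-type letters ACTACAA, and the GC box letters GGGCGG. The E-box letters CACGTG were searched too, all on both strands, and all were chosen after the sequences were seen. The HEXIM1 window, chr17:45148225-45148524 on the + strand, has 62% GC, against a median of 58.7% over all 35116 windows. It holds TATAAA, which 11.5% of all windows hold, and 2 copies of GGGCGG, which 45.0% hold. The CDK9 window, chr9:127785784-127786083 on the + strand, has 82% GC. It holds 2 copies of GGGCGG and also ACTACAA, found in 2.77% of all windows and also in windows of HEXIM2 and LARP7, which were not called. GGGCGG was found in windows of 7 of the 8 genes, with 4 copies in a window of CCNT2 and in 1 of MEPCE, which were not called. CACGTG, in 7.26% of all windows, was found in windows of AFF4, CCNT1 and MEPCE, none of them called. A match describes the letters and no more.
HEXIM1 promoter: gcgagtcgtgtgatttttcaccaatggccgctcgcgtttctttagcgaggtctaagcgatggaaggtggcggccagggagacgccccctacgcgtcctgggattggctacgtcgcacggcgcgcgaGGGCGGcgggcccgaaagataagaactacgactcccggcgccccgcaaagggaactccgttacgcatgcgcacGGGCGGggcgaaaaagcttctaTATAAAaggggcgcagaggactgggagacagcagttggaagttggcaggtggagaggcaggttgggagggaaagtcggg
CDK9 promoter: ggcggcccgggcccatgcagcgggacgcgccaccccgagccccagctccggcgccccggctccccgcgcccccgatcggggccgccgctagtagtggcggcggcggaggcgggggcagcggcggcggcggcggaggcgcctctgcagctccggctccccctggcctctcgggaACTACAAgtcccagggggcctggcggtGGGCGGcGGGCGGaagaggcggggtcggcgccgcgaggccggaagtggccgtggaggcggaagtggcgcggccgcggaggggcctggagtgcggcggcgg

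LARP7 and MEPCE, the proteins that stay on 7SK RNA whether or not P-TEFb is bound, showed no call. LARP7 (ENSG00000174720, chromosome 4), the La-related protein that protects the 3′ end, was at 544 and 560 in the SLFN5 siRNA libraries, and at 444 and 550 in the control siRNA libraries. Its log2 change was 0.16 (95% interval -0.18 to 0.50, limma adjusted p = 0.488). MEPCE (ENSG00000146834, chromosome 7), the enzyme that methylates the 5′ cap, was at 2311 and 2447 in the SLFN5 siRNA libraries, and at 2368 and 2561 in the control siRNA libraries. Its log2 change was -0.05 (95% interval -0.30 to 0.19, limma adjusted p = 0.778). For both genes the groups overlapped. ZCWPW1, which shares 203 exon bases with MEPCE, was at 103 and 97.7 in the SLFN5 siRNA libraries, and at 28.7 and 34.3 in the control siRNA libraries.

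CDK9 (ENSG00000136807, chromosome 9), the kinase subunit of P-TEFb, was at 608 and 413 in the SLFN5 siRNA libraries, and at 337 and 306 in the control siRNA libraries. The groups did not overlap, and SLFN5 siRNA 1 was well above the rest. The mean was 511 ± 138 after SLFN5 siRNA and 321 ± 21.7 after control siRNA (SD, n = 2 each), a 1.59-fold rise. The log2 change was 0.64 (SE 0.19, 95% interval 0.22 to 1.07, limma adjusted p = 0.0271). The call was lost under 3 of 15 alternatives, among them the fit without the intensity trend (limma adjusted p = 0.15). Without SLFN5 siRNA 1 the change was 0.36 and was not called (adjusted p = 0.192), and without control siRNA 2 it was 0.57 (adjusted p = 0.0765). Over the 15 alternatives the adjusted p ran between 0.000606 and 0.192.

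The cyclins that pair with CDK9 had changes near 0. CCNT1 (ENSG00000129315, chromosome 12) was at 1293 and 1627 in the SLFN5 siRNA libraries, and at 1328 and 1516 in the control siRNA libraries (log2 change 0.03, 95% interval -0.27 to 0.34, limma adjusted p = 0.893). CCNT2 (ENSG00000082258, chromosome 2) was at 784 and 941 in the SLFN5 siRNA libraries, and at 757 and 981 in the control siRNA libraries (log2 change 0.00, 95% interval -0.35 to 0.34, limma adjusted p = 0.985). Both pairs of groups overlapped. CCNT2 shares 148 exon bases with its antisense gene CCNT2-AS1. The log2 ratio of CDK9 to CCNT1 was -1.09 and -1.98 in the SLFN5 siRNA libraries, and -1.98 and -2.31 in the control siRNA libraries, a difference of 0.61, with SLFN5 siRNA 2 and control siRNA 1 equal to 2 decimals. AFF4 (ENSG00000072364, chromosome 5), the scaffold of the super elongation complex, was at 2256 and 1812 in the SLFN5 siRNA libraries, and at 2194 and 1995 in the control siRNA libraries. Its log2 change was -0.05 (95% interval -0.34 to 0.24, limma adjusted p = 0.819). The direction of MEPCE, CCNT1, CCNT2 and AFF4 turned under some scalings or left-out libraries.

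**Figure D3:**
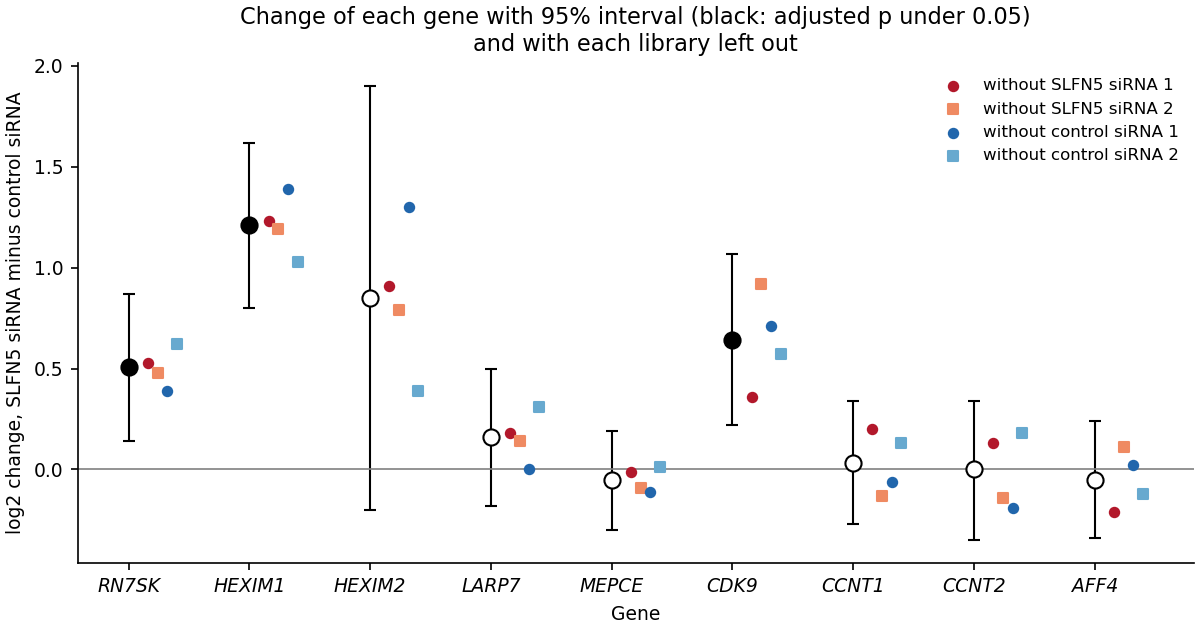
Log2 change, SLFN5 siRNA minus control siRNA, of each of the 9 genes with its 95% interval (large points, black where called), and with each library left out in turn (small points). The intervals of RN7SK, HEXIM1 and CDK9 lie above 0, and those of the other 6 genes include 0.

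Because 7SK RNA and HEXIM1 both rose, the ratio of their values was set out per library. Ratios with RN7SK are of values, not of molecules, as 7SK RNA has no poly(A) tail and the libraries were selected for poly(A). The log2 ratio of RN7SK to HEXIM1 was 10.51 and 10.53 in the SLFN5 siRNA libraries, and 10.93 and 11.53 in the control siRNA libraries. The ratio lay lower in both SLFN5 siRNA libraries, by 0.71 on average. Against LARP7 the RN7SK ratio was 10.15 and 10.16 in the SLFN5 siRNA libraries, and 9.85 and 9.78 in the control siRNA libraries. Against MEPCE it was 8.07 and 8.04 in the SLFN5 siRNA libraries, and 7.43 and 7.56 in the control siRNA libraries. So the 7SK RNA value was higher relative to LARP7 and MEPCE transcripts in both SLFN5 siRNA libraries, and lower relative to HEXIM1. It was also higher relative to CCNT1, CCNT2 and AFF4, by 0.47, 0.51 and 0.56 on average. Against HEXIM2 and CDK9 the ratios overlapped between groups, with differences of -0.39 and -0.14. The log2 ratio of HEXIM1 to CDK9 was -0.52 and 0.07 in the SLFN5 siRNA libraries, and -0.69 and -0.90 in the control siRNA libraries. With 2 against 2 libraries an exact permutation test cannot go below p = 0.333 for any of these differences.

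Levels were compared between genes as adjusted counts per kilobase of exon. RN7SK was far above the rest, at 1869792 and 1940253 per kilobase in the SLFN5 siRNA libraries and 1235570 and 1456331 in the control siRNA libraries. MEPCE had the highest level of the protein genes, with a mean of 695 after SLFN5 siRNA and 721 after control siRNA. CCNT1 followed at 198 after SLFN5 siRNA and 193 after control siRNA, and AFF4 at 180 after SLFN5 siRNA and 185 after control siRNA, with ranges that overlap each other in both groups. CDK9 stood at 170 after SLFN5 siRNA, where its range overlapped those of CCNT1 and AFF4, and at 107 after control siRNA, where it overlapped LARP7 and CCNT2. LARP7 was at 135 after SLFN5 siRNA and 122 after control siRNA. HEXIM1 was at 119 after SLFN5 siRNA, and at 51.8 after control siRNA. CCNT2 was at 86.4 and 104 in the SLFN5 siRNA libraries, below both HEXIM1 values, and at 83.4 and 108 in the control siRNA libraries, above both HEXIM1 values. HEXIM2 had the lowest level, 14.2 after SLFN5 siRNA and 8.05 after control siRNA.

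The tested genes whose profile over the 4 libraries lay nearest to that of RN7SK, by Euclidean distance of centred log2 values, were TMEM164 at 0.0334, FAM175A at 0.0367, MOSPD1 at 0.0372, CYB561D1 at 0.0475 and LIPT1 at 0.0502. None belongs to the particle, and FAM175A (limma adjusted p = 0.0639) and LIPT1 (limma adjusted p = 0.244) were not called. How near genes would lie to RN7SK by chance was not tested. TMEM164 was at 1470 and 1531 in the SLFN5 siRNA libraries, and at 963 and 1115 in the control siRNA libraries. Among the protein genes of the particle, LARP7 was nearest, at 0.35, and 9.99% of the genes tested were nearer. CCNT1 was at 0.51 with 24.3% nearer, CDK9 at 0.52 with 25.3%, CCNT2 at 0.54 with 26.9% and MEPCE at 0.56 with 29.2%. Farther off were AFF4 at 0.67 with 39.5% nearer, HEXIM1 at 0.82 with 54.1% and HEXIM2 at 0.88 with 59.7%. Profiles were centred but not scaled, so a gene that rose more than RN7SK also lies farther from it.

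Genes related to the particle and to P-TEFb were taken as 10 lists, put together with earlier results of these libraries known. The 10 include a list of RNAs without a poly(A) tail, 26 of them tested, which was taken for comparison with 7SK. Of the 122 tested genes in all 10 lists, 8 rose, 41 fell and 73 did not pass. Their median log2 change was -0.26, beside -0.03 over all genes tested. The shares were 6.56% higher and 33.6% lower, against 13.3% and 16.3% of all genes tested. Of the 49 calls, 29 held when each library was left out in turn.

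Among genes of proteins that recruit or release P-TEFb, 1 of 12 rose and 8 fell (8.33% and 66.7%, median log2 change -0.53). DDX21, an RNA helicase known to release P-TEFb from 7SK, was at 6253 and 6859 in the SLFN5 siRNA libraries, and at 12749 and 15275 in the control siRNA libraries (log2 change -1.09, limma adjusted p = 8.61e-05). JMJD6, a Jumonji domain protein, was at 638 and 763 in the SLFN5 siRNA libraries, and at 1275 and 1323 in the control siRNA libraries (log2 change -0.90, limma adjusted p = 0.000609). BRD3, a bromodomain protein, went the other way, at 494 and 376 in the SLFN5 siRNA libraries and 209 and 230 in the control siRNA libraries (log2 change 0.97, limma adjusted p = 0.00251). In this list 7 of the 9 calls held in every leave-out.

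Of 6 genes of hnRNP and related proteins that bind 7SK RNA freed of P-TEFb, 5 fell and 0 rose. These are 83.3% and 0%, with a median log2 change of -0.59. The helicase DHX9 was at 5888 and 6219 in the SLFN5 siRNA libraries, and at 9405 and 10298 in the control siRNA libraries (log2 change -0.70, limma adjusted p = 0.000648). HNRNPR was at 3189 and 3418 in the SLFN5 siRNA libraries, and at 5373 and 5311 in the control siRNA libraries (log2 change -0.69, limma adjusted p = 0.00065). Of 7 genes of the La and LARP families and the MEPCE relative, 4 fell and 0 rose (57.1% and 0%, median -0.47). SSB, the La protein that binds new RNA polymerase III transcripts, was at 1015 and 1354 in the SLFN5 siRNA libraries, and at 1980 and 2117 in the control siRNA libraries (log2 change -0.80, limma adjusted p = 0.0017). LARP4B fell by 0.65 on the log2 scale (adjusted p = 0.0017).

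The super elongation complex and AFF family moved both ways, with 2 of 9 higher and 3 lower (median 0.03). The scaffold genes AFF3 and AFF1 rose by 0.66 and 0.62 on the log2 scale (limma adjusted p = 0.00736 and 0.0049). AFF3 was not called without control siRNA 1 (0.55, adjusted p = 0.0631), nor AFF1 without control siRNA 2 (0.46, adjusted p = 0.0657). ELL2, an elongation factor of the complex, was at 218 and 326 in the SLFN5 siRNA libraries, and at 485 and 701 in the control siRNA libraries (log2 change -1.13, limma adjusted p = 0.00308). Its partner EAF2 was at 42.9 and 44.1 in the SLFN5 siRNA libraries and 89.7 and 71.8 in the control siRNA libraries (log2 change -0.87, adjusted p = 0.0496), a call that no leave-out kept, with an adjusted p of 0.101 without SLFN5 siRNA 1, 0.0832 without SLFN5 siRNA 2, 0.304 without control siRNA 1 and 0.113 without control siRNA 2.

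The pausing and elongation factors of the NELF, DSIF and PAF1 complexes had 1 of 13 higher and 5 lower (7.69% and 38.5%, median -0.07). NELFB, a NELF subunit, rose by 0.57 on the log2 scale (limma adjusted p = 0.00413). LEO1, a PAF1 complex subunit, was at 425 and 421 in the SLFN5 siRNA libraries, and at 833 and 867 in the control siRNA libraries (0.498-fold, limma adjusted p = 0.000336). WDR61 fell by 0.53 (adjusted p = 0.0154), and was not called without SLFN5 siRNA 1 (-0.45, adjusted p = 0.0657) or without control siRNA 2 (-0.41, adjusted p = 0.186). Of 14 other transcription kinases and cyclins, 1 rose and 3 fell (median -0.14). These are 7.14% and 21.4%, against 13.3% and 16.3% of all genes tested. CDK12, a kinase of the elongating polymerase, rose by 0.50 (adjusted p = 0.015), though not without SLFN5 siRNA 2 (0.35, adjusted p = 0.0936) or without control siRNA 1 (0.43, adjusted p = 0.078). CCNH and CDK7, subunits of the TFIIH kinase, fell by 0.75 and 0.54 (adjusted p = 0.00254 and 0.0361). CDK7 was not called without SLFN5 siRNA 1 (adjusted p = 0.101), without control siRNA 1 (0.145) or without control siRNA 2 (0.185).

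The polymerase genes were split by enzyme. Of 12 RNA polymerase II subunits, 1 rose and 2 fell (median -0.08). These are 8.33% and 16.7%, against 13.3% and 16.3% of all genes tested. POLR2D was at 638 and 645 in the SLFN5 siRNA libraries, and at 202 and 245 in the control siRNA libraries (log2 change 1.52, limma adjusted p = 8.54e-05). POLR2B fell by 0.46 (adjusted p = 0.00628), but with quantile normalization its change was -0.24 and was not called (adjusted p = 0.0892). POLR2H fell by 0.49 (adjusted p = 0.0226), and was not called without SLFN5 siRNA 1 (-0.43, adjusted p = 0.0856) or without control siRNA 2 (-0.32, adjusted p = 0.287). Of 13 subunits of RNA polymerase III, the enzyme that makes 7SK RNA, 1 rose and 7 fell (7.69% and 53.8%, median -0.52). POLR3G was at 102 and 103 in the SLFN5 siRNA libraries, and at 332 and 394 in the control siRNA libraries (log2 change -1.80, limma adjusted p = 9.02e-05). POLR3GL, which takes the same place in the enzyme as POLR3G, was at 176 and 244 in the SLFN5 siRNA libraries, and at 91.8 and 92.6 in the control siRNA libraries (log2 change 1.16, limma adjusted p = 0.00367). POLR3F fell by 1.23 (adjusted p = 0.000339). Of 10 factors of the 7SK type of promoter, 1 rose and 0 fell (10% and 0%, median 0.16). POU2F1, an octamer-binding factor, was at 654 and 680 in the SLFN5 siRNA libraries, and at 395 and 411 in the control siRNA libraries (log2 change 0.73, limma adjusted p = 0.00302).

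Of 26 tested RNAs without a poly(A) tail taken by name, 0 rose and 4 fell (median -0.26). The share that fell, 15.4%, is near the 16.3% of all genes tested. The share that rose, 0%, stands beside 13.3% of all genes tested. RNU6ATAC, a minor spliceosome RNA, was at 2102 and 1235 in the SLFN5 siRNA libraries, and at 2902 and 2928 in the control siRNA libraries (log2 change -0.86, limma adjusted p = 0.00637). Without SLFN5 siRNA 2 the change of RNU6ATAC was -0.47. RNU4ATAC, its partner, was at 3489 and 2299 in the SLFN5 siRNA libraries, and at 3769 and 6184 in the control siRNA libraries (log2 change -0.77, limma adjusted p = 0.0212). RNU4ATAC was not called without SLFN5 siRNA 2 (-0.47, adjusted p = 0.162) or without control siRNA 2 (-0.41, adjusted p = 0.0827).

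**Figure D4:**
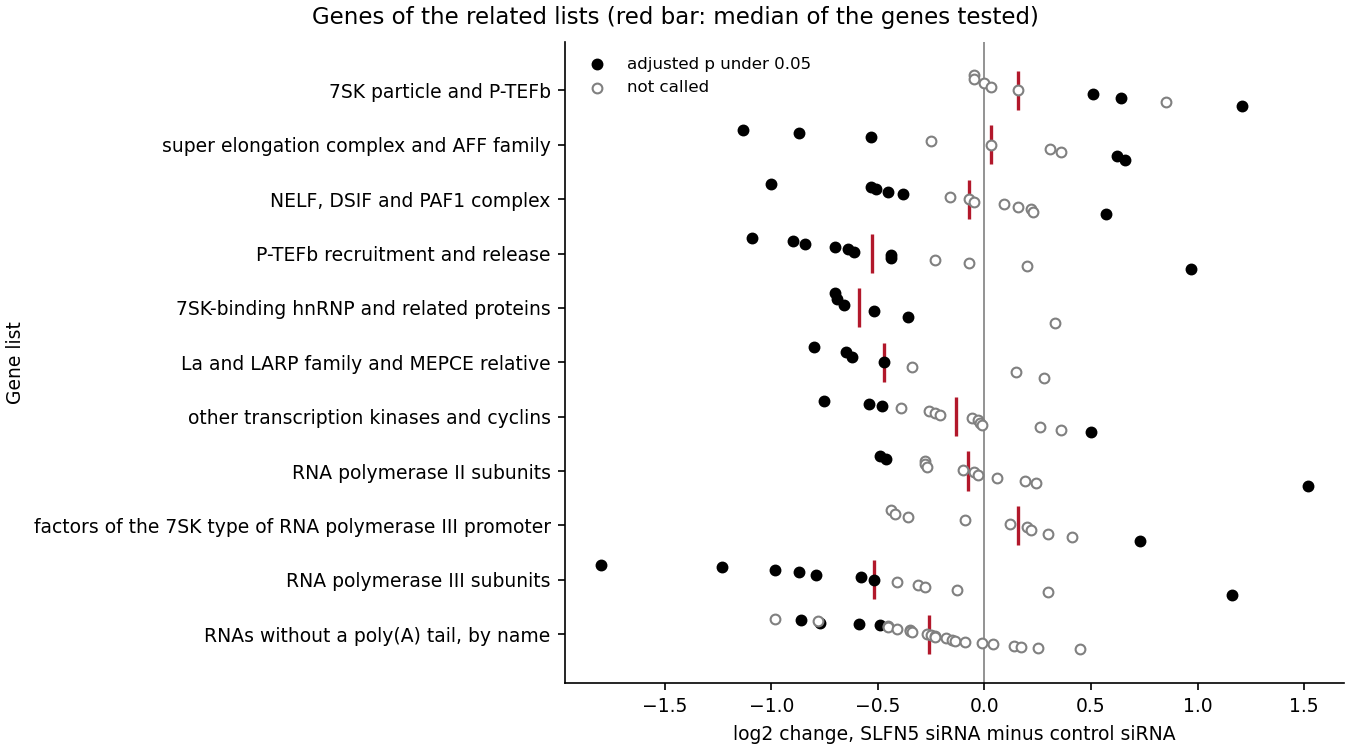
Log2 change, SLFN5 siRNA minus control siRNA, of each tested gene of the 9 described genes and the 10 related lists, filled where the adjusted p is under 0.05, with a red bar at each list's median. The lists of P-TEFb recruitment and release, 7SK-binding proteins and RNA polymerase III subunits have medians of -0.53, -0.59 and -0.52.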

How the data were processed

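Poly(A) selection used the TruSeq RNA v2 kit per the labels' protocols, a kit that does not mark strand. The submitters' processing notes name hg19 and edgeR. For aligner, counter and annotation nothing is given in the sources used here. The deposited signal values are not whole and behave as counts that the authors adjusted to a common library size. Inverting that adjustment gave a whole number for all values within a tolerance of 1e-04, and these recovered counts served for depth and for scaling alternatives. Because the deposited unit is a signal, the test was limma 3.58.1 (R 4.3.3) with an intensity trend on log2(value + 1), for genes at 10 or more in at least 2 libraries, two-sided, with Benjamini-Hochberg adjustment over all genes tested and a threshold of 0.05. Fold changes are on that scale, which understates changes of low genes, or ratios of means where called fold. The script was tested on simulated data. Exon lengths and the 7SK sequence came from GENCODE 29, promoters from RefSeq (GRCh38.p14). The coordinates are not of the hg19 build.

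The members and lists were chosen with earlier results of these data known. All 9 members, SLFN5, up to 2 genes in each direction per list by size of change, the 5 profiles nearest to RN7SK and the 3 RN7SK pseudogenes with the highest means are named. The design text speaks of triplicates, and 4 libraries were analysed here. The alternatives were other pseudocounts, filters, scalings, limma-voom, thinning, a replicate block and leaving out each library.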

Additional observations from a re-analysis of the deposited data

How the results depend on the processing

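HEXIM1 was called under each of 15 alternatives. Without the intensity trend 1 member, 1182 genes (672 higher, 510 lower) and 6 genes of the related lists (1 higher, 5 lower) were called. Leaving out 1 library at a time gave 1 to 2 called members, 2934 to 4084 genes and 40 to 47 list genes. A single member was left without SLFN5 siRNA 1 and without control siRNA 2. The lowest gene count among these leave-outs, 2934, came without control siRNA 2. With the replicate number that goes with a code shared across groups in the sample titles as a replicate block, 3 members, 6703 genes (3008 higher, 3695 lower) and 66 list genes (12 higher, 54 lower) were called. The labels do not say what the code marks. Deviations of same-numbered libraries correlated at 0.19 over 15640 genes, but with 2 pairs this does not settle the pairing, and the libraries were not treated as paired.

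Library-total scaling called 4515 genes (61.4% of them higher, against 45.1% in the main result) and 38 list genes (11 higher, 27 lower). Totals without RNAs lacking a tail called 4519 (62.2% higher) and 41 list genes (13 higher, 28 lower). These moved the median change of all genes to 0.09 and 0.10, against -0.03.

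Directions turned only for uncalled members. Leaving out 1 library at a time gave -0.11 to 0.01 for MEPCE, -0.13 to 0.20 for CCNT1, -0.19 to 0.18 for CCNT2 and -0.21 to 0.11 for AFF4. MEPCE was 0.09 with quantile normalization, 0.07 and 0.08 with the 2 totals and 0.01 without control siRNA 2. CCNT1 was -0.13 without SLFN5 siRNA 2 and -0.06 without control siRNA 1. CCNT2 was 0.05 with quantile normalization, 0.02 with median of ratios, 0.12 with either total, 0.02 with voom, 0.13 without SLFN5 siRNA 1 and 0.18 without control siRNA 2. AFF4 was 0.09 with quantile normalization, 0.07 and 0.08 with the totals, 0.11 without SLFN5 siRNA 2 and 0.02 without control siRNA 1. The cause was not tested.

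With 2 libraries a group, HEXIM2 has the widest interval, at 11.1 to 30.1 adjusted counts.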
